A study of Homo sapiens with 6 samples.

Results

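CARD16 and 8 genes of the inflammatory caspase pathway were followed in side population cells of an ovarian carcinoma line: CASP1, CASP4, CASP5, CARD8, PYCARD, NLRP1, GSDMD and IL18. All probe sets that the platform annotation gives to these 9 genes were taken, which made 9 of 19775 measured genes and 23 of 54613 probe sets, and 1 of the 23 is annotated to CARD16 and CASP1 together. CARD16 was picked because an earlier look at these arrays had placed it among the genes that differed between the sorted fractions, and the others because they are its paralogues or parts of the same machinery. The SP minus non-SP difference of the members is therefore given as a description, with its error, and no p-value is given for any of them.

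IGROV1 is a long-established line grown from a human ovarian carcinoma. Stained with the DNA dye Hoechst 33342, a small fraction of such cells keeps little dye because membrane pumps export it, and this fraction is the side population (SP). The samples were 3 of sorted SP cells, set against 3 of sorted non-SP cells from the same line, with the sort as the one handling step named for both and no drug, gene change or time course in either. Every sample was hybridised to 1 array. SP cells are defined by low dye, so an effect of retained dye and any other difference between the fractions cannot be told apart. The samples are labelled as biological replicates, but nothing says that they came from separate cultures, so the errors below describe how these particular samples scattered, and part of that scatter may be technical.

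Inflammasomes are protein platforms that switch on caspase-1. A sensor such as NLRP1, or CARD8, detects damage or infection, in many cases with the adaptor ASC (gene PYCARD), and pro-caspase-1 joins through its caspase recruitment domain (CARD). Active caspase-1 cuts the precursors of interleukin-1 beta and interleukin-18 and also gasdermin D, whose freed end makes pores in the plasma membrane and can kill the cell by pyroptosis. Caspase-4 and caspase-5 sense bacterial lipopolysaccharide in the cytosol and cut gasdermin D directly. CARD16 (also called COP or Pseudo-ICE) is little more than a CARD that closely resembles that of caspase-1; it binds caspase-1 and was described as an inhibitor of its activation. In the RefSeq annotation of GRCh38.p14, CASP4, CASP5, CASP1, CARD16 and CARD18, another CARD-only gene, lie on chromosome 11 in this order. IL18 lies on chromosome 11 as well, GSDMD on chromosome 8, PYCARD on 16, NLRP1 on 17 and CARD8 on 19.

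Values are log2 levels per probe set, so a difference of 1 is a doubling. The level that hybridisation gives without a target was read from 3 probe sets for a bacterial trp gene, whose mean lay between 2.82 and 2.91 on the SP arrays and between 2.85 and 2.96 on the non-SP arrays. Of the 23 member probe sets, 20 lay above that mean on all 6 arrays, 2 on some arrays and 1 on none. By mean level over the arrays, 22 of the 23 lay above it, beside 47960 of all 54613 probe sets. Lying above it is therefore common on the whole array and no mark of the members. The 19 epithelial and ovarian marker probe sets all lay above the trp controls on 6 of 6 arrays, with a mean level of 8.52 to 8.85 in SP samples and 8.59 to 8.93 in non-SP samples. Of these, 14 had a lower mean in SP samples (median difference -0.13), while 46.8% of all probe sets had a higher one. The groups did not overlap with SP lower for 4 (6.87% over the whole array) and with SP higher for 1 (5.59%). The 4 with SP lower included EPCAM, an epithelial surface protein, at -0.15 (SE 0.12) and the keratin KRT8 at -0.71 (SE 0.22). MSLN at -0.37 (SE 0.16) and PAX8 probe set 221990_at at -0.37 (SE 0.15) were the others. The groups overlapped for the keratins KRT18 (0.058) and KRT19 (-0.068 and -0.14), and for every other PAX8 probe set (-0.21 to 0.033). The 1 with SP higher was a probe set of E-cadherin (CDH1), at 0.57 (SE 0.20). The other CDH1 probe set, 201131_s_at, differed by 0.79 (SE 0.31), with groups that overlapped. Inflammasome genes are abundant in myeloid cells. Of the 17 leukocyte and myeloid probe sets, 6 lay above the trp controls on all 6 arrays and 8 below them on all 6, and their mean level was 3.18 to 3.32 in SP samples and 3.14 to 3.24 in non-SP samples. Those above included the myeloid genes TYROBP (mean 5.68 in SP samples and 5.62 in non-SP samples), SPI1 (5.39 in SP and 5.50 in non-SP samples) and CD14 (5.33 in SP and 5.37 in non-SP samples), while of 5 probe sets for PTPRC, the leukocyte marker CD45, 3 lay below on all 6 arrays and the other 2 on 5 of 6. The groups overlapped in all 17. Of the 16 fibroblast probe sets, 9 lay above the controls on all 6 arrays and 5 below, with a mean level of 3.69 to 3.75 in SP samples and 3.80 to 4.03 in non-SP samples. The collagen gene COL1A1 had 3.23, 3.46 and 3.22 in SP samples, against 6.11, 5.85 and 4.85 in non-SP samples with probe set 1556499_s_at (difference -2.30, SE 0.33), and its other 4 probe sets differed by -0.37 to -0.10. The groups did not overlap with SP lower for 3 of the 16 fibroblast probe sets (6.87% over the whole array), all of COL1A1. With SP higher this held for 0 (5.59%). The part of these marker differences in the results was not tested. Along the first principal component of all probe sets, which held 38.1% of the variance, SP replicate 1 lay with non-SP replicates 1 and 3, and SP replicates 2 and 3 lay with non-SP replicate 2. The first set had the lower 3' minus 5' signal of the ACTB control, a sign of how evenly transcripts were copied (2.02 to 2.29, against 2.46 to 2.55 in the other set). The same signal of the GAPDH control did not separate the sets (0.042 to 0.15, against 0.035 to 0.36 in the other set). These sets come from the data and are no groups of the study. A lower level in such bulk samples cannot be told apart from fewer cells that carry the RNA.

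CARD16 was the member with the largest SP minus non-SP difference. Its main probe set, 1552701_a_at, had 7.40, 7.14 and 7.27 in SP samples, against 5.88, 6.18 and 6.23 in non-SP samples. The groups did not overlap, and the lowest SP value exceeded the highest non-SP value by more than the range within either group. The means were 7.27 ± 0.13 in SP samples and 6.10 ± 0.19 in non-SP samples (SD, n = 3 each). The log2 difference was 1.17 with an SE of 0.15, which is 2.24-fold, and its 95% interval ran between 0.81 and 1.53 on the log2 scale. Of all probe sets, 0.667% had a higher difference. CARD16 was picked for this difference, so the rank, the gap and the interval describe it and are no test. Within the first set of arrays named above the difference was 1.34, and within the other it was 1.02. Adding the ACTB control to the fit left it at 1.16 (SE 0.15).

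The other CARD16 probe sets give less. Probe set 1554744_at had 2.10, 2.07 and 1.55 in SP samples, against 1.85, 1.87 and 2.28 in non-SP samples, below the trp controls on all 6 arrays. It gives no usable CARD16 level, and averaging it with the main probe set brings the gene's difference down to 0.54 (SE 0.15). The third, 1552703_s_at, is annotated to both CARD16 and CASP1, so its signal cannot be assigned to one of them. It had 8.72, 8.59 and 8.09 in SP samples, against 8.35, 8.04 and 7.66 in non-SP samples. The groups overlap there, because SP replicate 3 lay below non-SP replicate 1. The difference was 0.45 (SE 0.24), with an interval of -0.13 to 1.03.

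**Figure D1:**
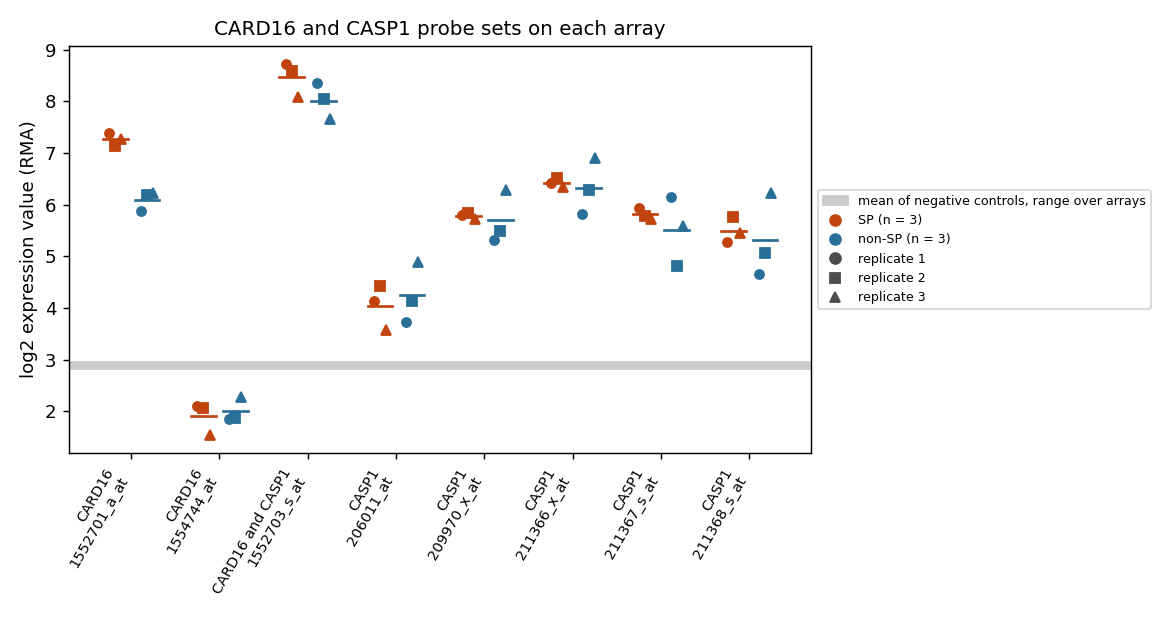
Log2 level of each probe set for CARD16, for CARD16 and CASP1 together, and for CASP1 on every array, with SP samples left of non-SP samples; bars are means of 3, marker shapes are replicate numbers and the grey band is the range of the trp control mean. For CARD16 probe set 1552701_a_at the SP samples (7.14 to 7.40) lie apart from the non-SP samples (5.88 to 6.23), while for the 5 CASP1 probe sets the groups overlap.

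CASP1, which encodes the caspase that all canonical inflammasomes activate and lies next to CARD16, had SP and non-SP values that overlapped in all 5 of its own probe sets. Its probe set 211366_x_at had 6.41, 6.51 and 6.35 in SP samples, against 5.81, 6.28 and 6.90 in non-SP samples. All 3 SP values lay inside the non-SP range. The difference was 0.094 (SE 0.27), with an interval of -0.56 to 0.75. Over the 5 CASP1 probe sets, all above the trp controls on 6 of 6 arrays, the difference ran from -0.22 (SE 0.35) for 206011_at to 0.30 (SE 0.32) for 211367_s_at, and the groups overlapped in each. The intervals reach 1.13 at the upper end, so these data bound a CASP1 change less tightly than they measure that of CARD16, and the difference between both genes was not tested, since CARD16 was chosen for its own.

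For CASP1 the non-SP samples were spread more widely than the SP samples, a difference in spread that was not tested. In 211368_s_at the SP samples had 5.28, 5.76 and 5.45, against 4.67, 5.07 and 6.22 in the non-SP samples. The SD of the CASP1 probe sets lay between 0.06 and 0.43 in SP samples and between 0.51 and 0.81 in non-SP samples. For 206011_at, 209970_x_at, 211366_x_at and 211368_s_at, non-SP replicate 3 was the highest of the 6 arrays, and their pairwise Pearson r over the 6 arrays, which share 1 normalization, lay between 0.77 and 0.97. The remaining probe set, 211367_s_at, ordered the arrays otherwise, with 6.14 in non-SP replicate 1 as its highest and 4.82 in non-SP replicate 2 as its lowest value. Its r with the other CASP1 probe sets lay between -0.25 and 0.0022, so the CASP1 probe sets do not measure a single common pattern. The suffixes _s_at and _x_at mark probe sets whose probes can match more than 1 transcript, and CARD16, CASP1, CASP4 and CASP5 are close copies. How far their probes cross-hybridise was not tested.

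CASP4 and CASP5, the cytosolic lipopolysaccharide receptors among the caspases, are neighbours that arose by duplication, and they stood differently against background. CASP4 lay far above it: probe set 209310_s_at had 9.62, 9.74 and 10.03 in SP samples, against 9.73, 9.97 and 9.61 in non-SP samples, a difference of 0.027 (SE 0.17; interval -0.37 to 0.43). CASP5 lay near it: probe set 207500_at had 3.39, 3.38 and 3.59 in SP samples, against 3.23, 3.85 and 3.53 in non-SP samples. That is above the mean of the trp controls on 6 of 6 arrays but below the first quartile of all probe sets (3.90 to 3.93) on each, so its difference of -0.087 (SE 0.19) says little about CASP5. The promoter windows of both genes are shown because this pair contrasts a paralogue that is well detected with one near background. They are RefSeq reference sequences of build GRCh38.p14, 250 bases before to 50 after the start, 5′ to 3′ on the minus strand, where capitals mark motif matches.
CASP4, chr11:104968525-104968824: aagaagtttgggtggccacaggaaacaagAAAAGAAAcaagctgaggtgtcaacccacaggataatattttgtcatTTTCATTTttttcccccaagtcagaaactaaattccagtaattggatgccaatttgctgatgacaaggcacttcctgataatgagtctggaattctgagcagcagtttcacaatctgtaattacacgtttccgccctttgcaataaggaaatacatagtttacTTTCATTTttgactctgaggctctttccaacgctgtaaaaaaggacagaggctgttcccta
CASP5, chr11:105023119-105023418: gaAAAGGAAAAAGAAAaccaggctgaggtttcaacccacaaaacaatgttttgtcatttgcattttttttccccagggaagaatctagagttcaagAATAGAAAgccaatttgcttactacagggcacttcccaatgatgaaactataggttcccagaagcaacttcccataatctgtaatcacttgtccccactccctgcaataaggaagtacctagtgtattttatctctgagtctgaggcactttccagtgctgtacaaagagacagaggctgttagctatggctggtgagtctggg
The windows remain alike, with 219 of 279 aligned bases identical (78.5%) in a global alignment. Motifs of factors known from inflammatory signalling were searched on both strands, namely the interferon regulatory factor core AANNGAAA and the NF-kB consensus. Each window held 3 matches to the interferon regulatory factor core, 2 of which overlap each other in the CASP5 window. The core was shortened after a longer form had matched in CASP5 alone, so the equal counts are no independent result. Neither held the NF-kB consensus. Of the 35116 windows of the same length, 22.8% held the interferon regulatory factor core and 11.3% the NF-kB consensus. A match describes letters in the window, not binding.

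The other CASP4 probe set, 213596_at, had 7.41, 6.35 and 6.50 in SP samples, against 7.18, 6.60 and 7.07 in non-SP samples. Its difference of -0.19 (SE 0.31) is small beside the spread within the SP group. The 3 highest values belong to SP replicate 1 and non-SP replicates 1 and 3, the arrays with the lower ACTB 3' minus 5' signal. The part of RNA copying in this order was not tested.

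The sensors CARD8 and NLRP1 form inflammasomes of a related kind: both are cut within a built-in autoproteolytic domain and are held back by the dipeptidyl peptidases DPP8 and DPP9. CARD8 was measured by 4 probe sets, all above the trp controls. In 204950_at the SP samples had 6.20, 6.11 and 5.97, against 6.71, 6.43 and 6.25 in non-SP samples. The SP values lay below every non-SP value, though by only a small gap between SP replicate 1 and non-SP replicate 3. The difference was -0.37 (SE 0.16), with an interval of -0.75 to 0.013. The probe sets 228641_at and 232969_at also had lower means in SP samples, with differences of -0.31 (SE 0.19) and -0.50 (SE 0.36) and groups that overlapped. The last, 1554479_a_at, had 7.14, 7.04 and 6.73 in SP samples, against 6.16, 7.42 and 7.22 in non-SP samples, a difference of 0.038 (SE 0.34). Averaged over its 4 probe sets CARD8 differed by -0.29 (SE 0.11).

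NLRP1 was dim. Probe sets 1562256_at and 1562257_x_at lay at the trp controls (2.77 to 3.09 in SP samples and 2.81 to 3.23 in non-SP samples) and give no level. Probe set 210113_s_at had 4.12, 4.51 and 4.71 in SP samples, against 4.67, 4.68 and 4.84 in non-SP samples. The groups overlap, and the difference was -0.28 (SE 0.18; interval -0.71 to 0.15). Probe sets 211822_s_at and 211824_x_at differed by -0.039 (SE 0.14) and 0.023 (SE 0.12).

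PYCARD, the gene of the adaptor ASC, had 5.17, 6.15 and 5.37 in SP samples, against 6.07, 5.46 and 5.34 in non-SP samples with its 1 probe set, 221666_s_at. The groups share nearly the same range, and the difference was -0.061 (SE 0.31; interval -0.82 to 0.69), a wide bound in either direction.

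GSDMD, the pore-forming target of the inflammatory caspases, with probe set 218154_at had 7.04, 6.71 and 6.48 in SP samples, against 7.22, 6.77 and 6.99 in non-SP samples. The groups overlap, and the difference was -0.25 (SE 0.20; interval -0.72 to 0.22). As for CASP4 probe set 213596_at, its 3 highest values belong to SP replicate 1 and non-SP replicates 1 and 3. IL18, the cytokine whose precursor caspase-1 cuts, had 10.23, 10.32 and 10.18 in SP samples, against 10.19, 9.99 and 10.15 in non-SP samples with probe set 206295_at. The groups overlap narrowly, at SP replicate 3 and non-SP replicate 1. The difference was 0.14 (SE 0.12; interval -0.16 to 0.43).

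**Figure D2:**
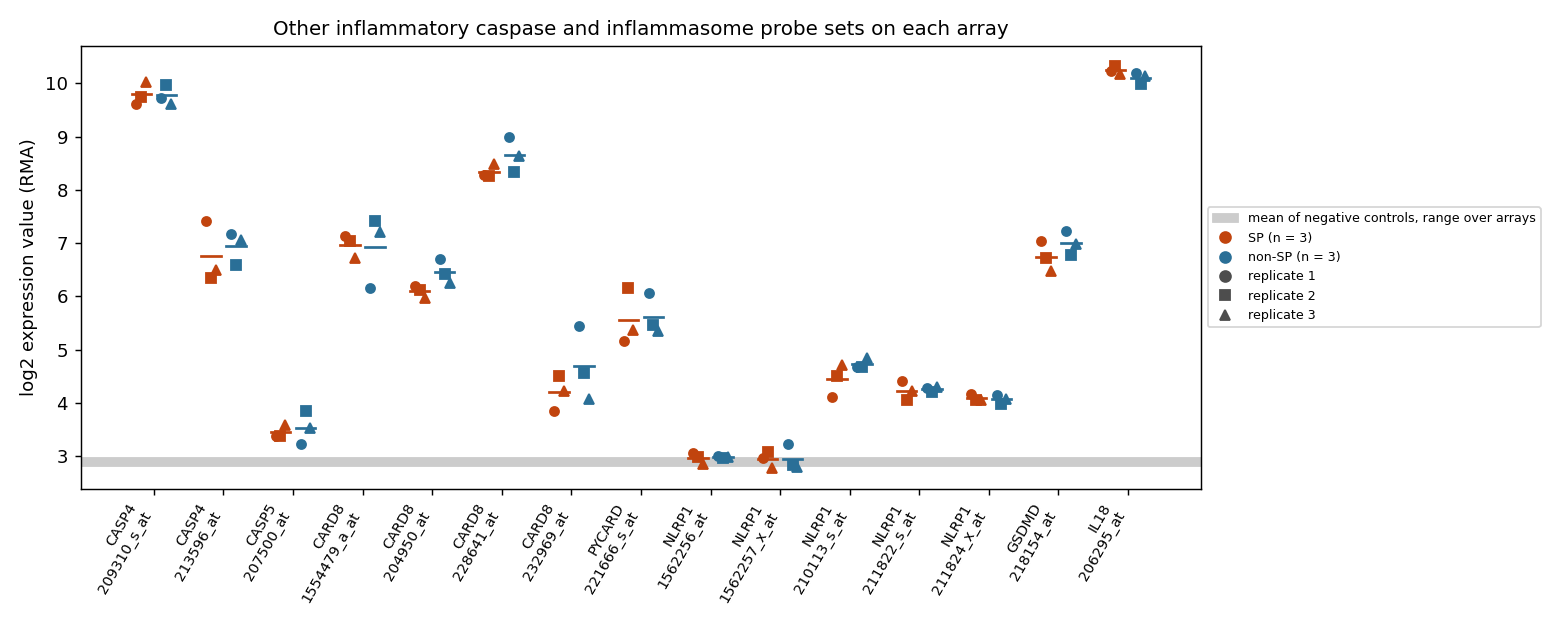
Log2 level of the 15 remaining probe sets, for CASP4, CASP5, CARD8, PYCARD, NLRP1, GSDMD and IL18, on every array, with SP samples left of non-SP samples; bars are means of 3, marker shapes are replicate numbers and the grey band is the range of the trp control mean. CARD8 probe set 204950_at is the one whose groups do not overlap, and CASP5 and 2 of the NLRP1 probe sets lie near the band.

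Among the members, 0 of 23 probe sets passed an adjusted p of 0.05 in the limma fit across all probe sets, and 1 of 23 had an unadjusted p under 0.05. Both counts include the values by which CARD16 was picked, so they are no test of it. Over the whole array 0.00183% of probe sets passed the adjusted threshold and 7.31% had an unadjusted p under 0.05. The groups did not overlap with SP higher for 1 member probe set, where the whole array had 5.59%, and with SP lower for 1, where the whole array had 6.87%. Of the 22 probe sets annotated to a single member, 9 had a higher mean in SP samples and 13 a lower one, with a median difference of -0.031, beside -0.017 over all probe sets. Counts of this size are near those of the whole array. They describe the members and carry no test, since the contrast had a part in choosing them.

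**Figure D3:**
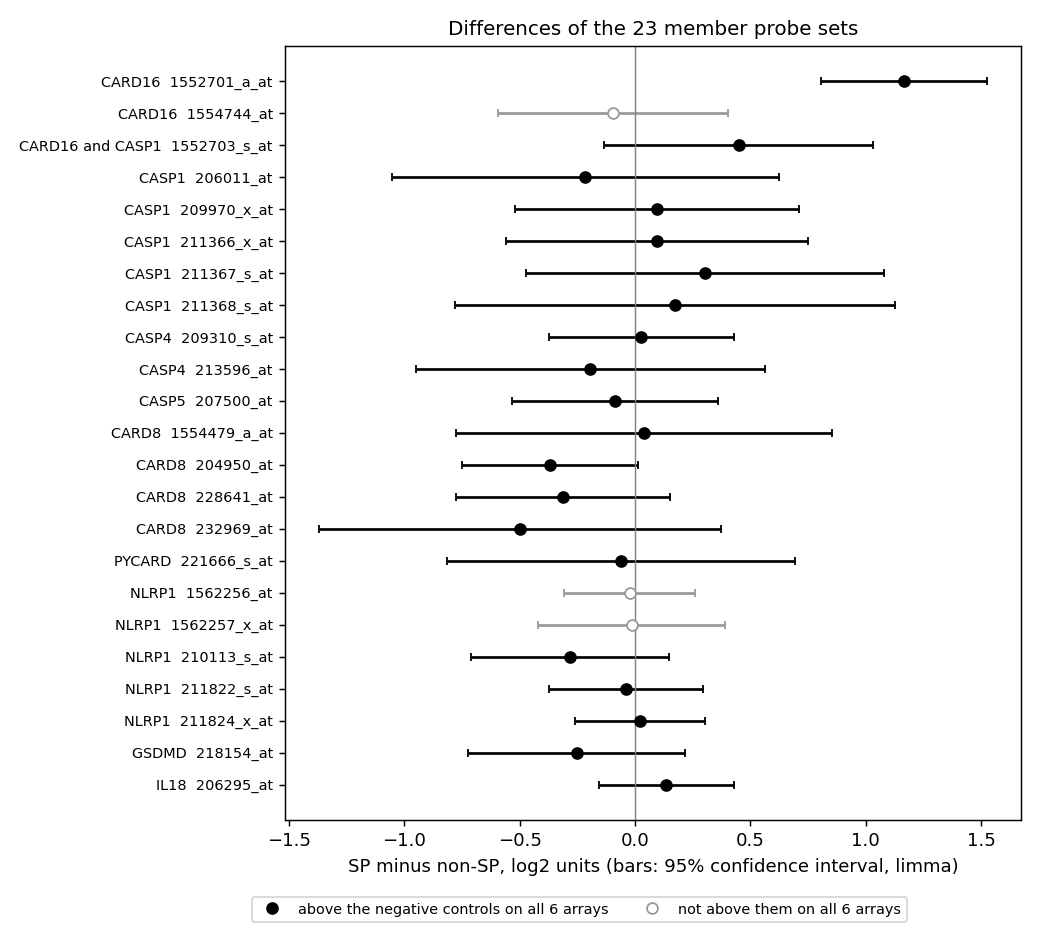
SP minus non-SP difference in log2 units of the 23 member probe sets, with 95% confidence intervals from limma; open grey points are probe sets not above the trp controls on all 6 arrays. CARD16 probe set 1552701_a_at stands at 1.17 (0.81 to 1.53), but CARD16 was picked for this difference, so its interval is no test. The intervals of the other 22 include 0.

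The genes whose levels followed CARD16 most closely over the 6 arrays were sought among 9741 single-gene probe sets above the median level with an SD of at least 0.3. The 5 with the highest Pearson r were SLCO3A1, a transporter of organic anions (r = 0.999), FRAS1, an extracellular matrix protein (0.994), INTS6, a subunit of the Integrator complex (0.992), DICER1, the nuclease that makes microRNAs (0.991), and NAB1, a corepressor of EGR factors (0.991). SLCO3A1 had 6.87, 6.63 and 6.72 in SP samples, against 5.64, 5.89 and 5.98 in non-SP samples, a difference of 0.90. The differences of the other 4 lay between 0.57 for DICER1 and 1.13 for NAB1. Each r describes 6 arrays that share 1 normalization and that fall into groups set apart for CARD16, so it mostly measures that gap, and it carries no p.

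The wider pathway was described through 9 lists holding 66 measured genes and 152 probe sets, 130 of them outside the members. In the limma fit 0 of the 152 passed the adjusted threshold (0.00183% over the whole array), and 15 had an unadjusted p under 0.05 (7.31%). The groups did not overlap with SP higher for 13 (5.59%) and with SP lower for 6 (6.87%). Of the 29 sensor probe sets, 9 had a higher mean in SP samples, with a median difference of -0.036. CARD8 at -0.50 and NAIP, a sensor of bacterial secretion proteins, at 0.32 (SE 0.18, probe set 204861_s_at) were the ends of that list among probe sets above background. NAIP has near-identical genomic copies and is uncertain.

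CARD18, the CARD-only neighbour of CARD16, had 3.41 ± 0.16 in SP samples and 3.55 ± 0.17 in non-SP samples (SD, n = 3 each), near background, and PYDC1, a pyrin-only protein, differed by -0.17 (SE 0.12). RIPK2, a CARD kinase downstream of the NOD receptors that CARD16 is known to bind, had 6.84, 6.46 and 6.20 in SP samples, against 6.68, 7.10 and 7.35 in non-SP samples with probe set 209544_at. SP replicate 1 lay inside the non-SP range, and the difference was -0.55 (SE 0.24). The second RIPK2 probe set, 209545_s_at, differed by -0.46 (SE 0.31). NEK7, which licenses the sensor NLRP3, differed by 0.060 (SE 0.14).

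Of 24 probe sets for cytokines, receptors and decoys, 16 had a higher mean in SP samples, with a median difference of 0.057. IL1R1, the signalling receptor for interleukin-1, had 9.84, 8.93 and 9.27 in SP samples, against 8.15, 7.93 and 8.44 in non-SP samples with probe set 202948_at. Every SP value exceeded every non-SP value, and the difference was 1.17 (SE 0.26). Its other probe set, 215561_s_at, differed by 1.03 (SE 0.34), again without overlap. The decoy receptor IL1R2 differed by -0.45 (SE 0.18) in 211372_s_at, without overlap, and by -0.27 (SE 0.22) in 205403_at. The groups did not overlap with SP higher for 3 of the 24 (5.59% over the whole array) and with SP lower for 2 (6.87%). These also took in IL18BP probe set 224283_x_at, at 0.69 (SE 0.19), and IL1RN probe set 212657_s_at, at -0.42 (SE 0.15). The latter was above the trp controls on only 2 of 6 arrays. The other probe sets of IL18BP (-0.070 and 0.30) and IL1RN (-0.032 to 0.15) overlapped. IL1B, the main caspase-1 substrate beside IL18, was dim, with 3.95, 3.97 and 3.87 in SP samples, against 3.94, 4.04 and 3.47 in non-SP samples with probe set 205067_at. The other IL1B probe set, 39402_at, had 4.36, 4.23 and 4.08 in SP samples, against 4.16, 4.32 and 4.03 in non-SP samples. IL1B, IL18BP and IL1RN, like CARD18, are named here outside the rule for named genes, after their values were seen.

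Of 39 probe sets for 11 genes listed as brakes on sensors and caspases, 31 (79.5%) had a higher mean in SP samples. Over all probe sets the share was 46.8%. The median difference of the 39 was 0.15. Probe sets of the same gene are not separate observations. The heading of this list is loose, since TXNIP and SUGT1, for example, are not plain inhibitors. All of their probe sets had a higher mean in SP samples (0.095 to 0.18 for TXNIP and 0.048 to 0.26 for SUGT1). The 31 are therefore no count of raised inhibitors. SERPINB9, a serpin that blocks granzyme B and has been reported to act on caspase-1, was at the upper end with 10.31, 10.78 and 10.75 in SP samples, against 8.72, 9.27 and 9.27 in non-SP samples (difference 1.52, SE 0.21, probe set 209723_at). BCL2L1, a survival protein that can bind NLRP1, was at the lower end with -0.34 (SE 0.21, probe set 231228_at). SERPINB9 was known to differ when this list was written, so the list's direction is no independent evidence. The groups did not overlap with SP higher for 6 of the 39 (5.59% over the whole array) and with SP lower for 0 (6.87%). The 6 were 2 probe sets each of SERPINB9 and of SERPINB1, an inhibitor of inflammatory caspases, and 1 each of XIAP and BIRC2, which encode inhibitor of apoptosis proteins. SERPINB1, XIAP, BIRC2, TXNIP and SUGT1 were named after their values were seen.

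Of 20 probe sets of other caspases, 15 had a lower mean in SP samples, with a median difference of -0.14. The initiator caspases CASP8 and CASP9 marked the ends, with 0.35 (SE 0.13, probe set 1553306_at) and -0.40 (SE 0.38, probe set 240437_at). Among the 8 gasdermin and membrane rupture probe sets, 5 had a higher mean in SP samples, and GSDMB was at the upper end with 0.41 (SE 0.24, probe set 219233_s_at) and GSDMD at the lower. Of 15 probe sets for interferon-side regulators, 8 had a higher mean in SP samples, with a median difference of 0.0086. IRF8, an interferon regulatory transcription factor, differed by 0.44 (SE 0.24). GBP2, an interferon-induced GTPase, had 9.01, 5.59 and 5.43 in SP samples, against 8.34, 6.55 and 7.77 in non-SP samples (difference -0.87, SE 1.01). Its high values belong again to SP replicate 1 and non-SP replicates 1 and 3, and the spread within the SP group is larger than the difference.

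**Figure D4:**
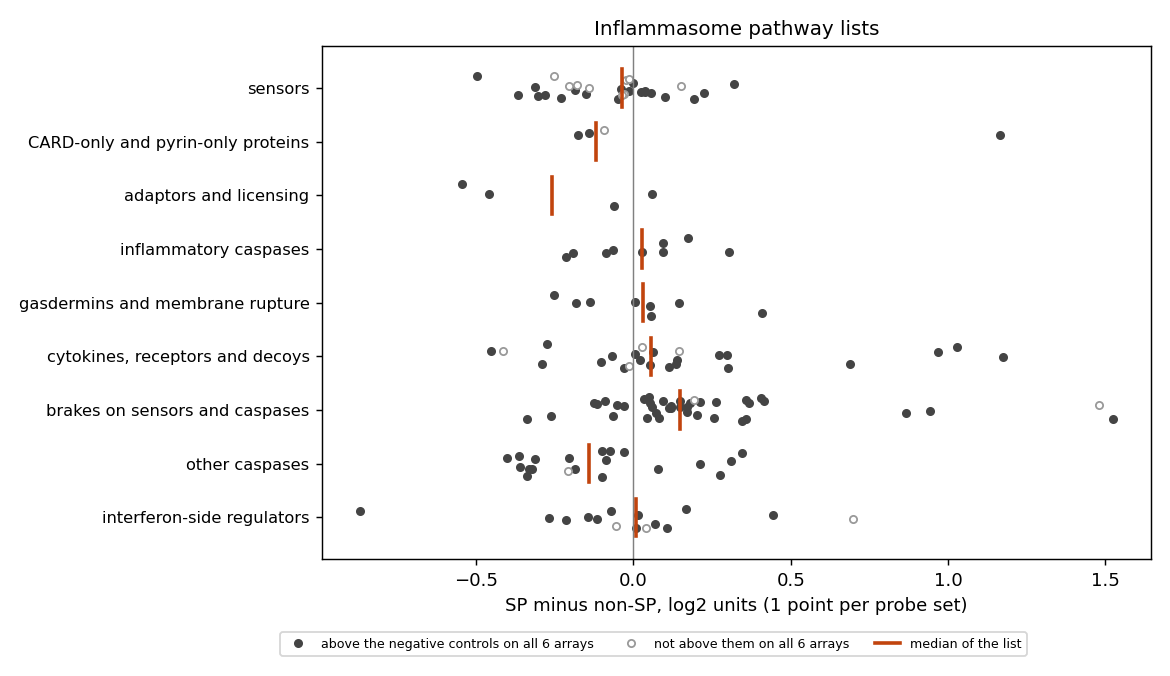
SP minus non-SP difference in log2 units of every probe set of the 9 pathway lists, 1 point per probe set with random vertical offsets; red bars are list medians and open points are probe sets not above the trp controls on all 6 arrays. CARD16 (1.17), IL1R1 (1.17) and SERPINB9 (1.52) stand to the right of their lists. The medians of all 9 lists lie between -0.26 and 0.15.

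**Figure D5:**
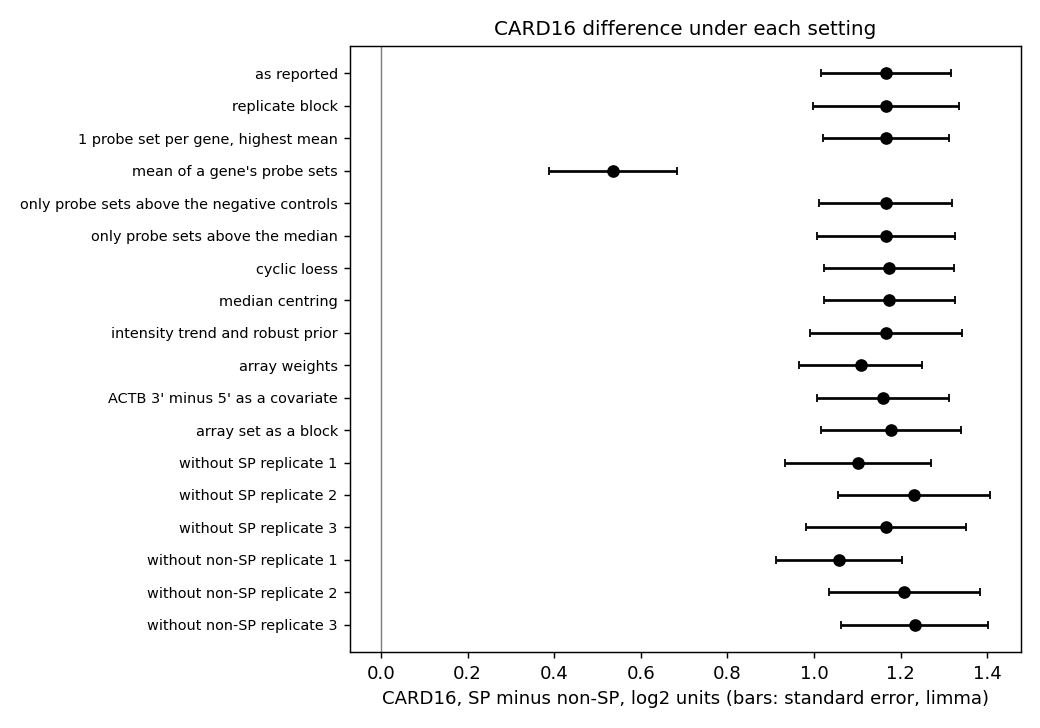
Difference of CARD16 probe set 1552701_a_at (SP minus non-SP, log2 units, with limma standard errors) as reported and under each alternative. It stays between 1.06 and 1.23, apart from the mean of the gene's probe sets at 0.54, which takes in the probe set below background. Some alternatives, such as the replicate block, leave the difference the same by construction.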

How the data were processed

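RNA of 3 SP and 3 non-SP samples was amplified by a whole-transcriptome method for small amounts, labelled with biotin and hybridised, per the labels' protocols. Values are log2 expression per probe set, deposited by the authors; per the submitters' processing notes they were made with R 2.8.1, affy and RMA, while their options were not given in the sources used here. RMA sets all arrays to 1 distribution, so a global shift cannot be seen, and it compresses differences near background. For arrays, their number limits the precision.

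The 62 control probe sets were left out of the tests, and each of the 54613 others was fitted on its own in R 4.3.3 by lmFit and eBayes of limma 3.58.1 (SP minus non-SP, two-sided), with Benjamini-Hochberg adjustment over all of them. Intervals are at the 95% level. The fit was tested on simulated data. Genes came from the platform annotation, whose single symbols were unchanged when matched by Entrez ID to RefSeq, and 1801 probe sets with several symbols were given to no single gene. Background was the mean of 3 trp probe sets, because 24 other Bacillus control probe sets were bright on all 6 arrays. Python 3.11.15, pandas 2.3.3, Biopython 1.88 and matplotlib 3.10.9 did the rest.

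The rule named every member, the highest and lowest probe set above background of each list, and the 5 genes most like CARD16. The members, lists and alternatives were chosen with earlier results of these data known. Alternatives were a replicate block, 1 probe set or the mean per gene, filters on dim probe sets, cyclic loess, array weights, median centring, a robust prior with an intensity trend, the ACTB covariate, the array set as a block and leaving out each sample. Listed genes without a probe set of their own in the table were not analysed here, and promoter windows of CARD16 and CASP1 were not used here. The interferon regulatory factor motif was shortened after both promoter windows had been searched with a longer form, which matched in CASP5 alone.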

Additional observations from a re-analysis of the deposited data

How the results depend on the processing

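The CARD16 difference of 1.17 in probe set 1552701_a_at kept its sign in all 17 alternatives. Many of these could not change it. The replicate block, 1 probe set per gene, the filters on dim probe sets and the robust prior leave its value the same by construction. Leaving out 1 sample cannot turn its sign, since the groups do not overlap. The difference ranged from 1.06 to 1.23 with 1 sample left out. It was 0.54 with the mean of the gene's probe sets, which averages in the probe set below background. With the replicate number as a block it was 1.17 (SE 0.17). For the shared CARD16 and CASP1 probe set 1552703_s_at the same block gave 0.45 with an SE of 0.13, against 0.24 without it. The numbers were not taken to pair samples: deviations of same-numbered samples correlated at 0.34, 0.27 and -0.16 for numbers 1, 2 and 3. Those of an SP and a non-SP sample with different numbers correlated at -0.45 to 0.30. In these 17 alternatives 0 member probe sets and 0 list probe sets passed the adjusted threshold. The count over all probe sets, 1 as reported (LINC00518), was 0 with the replicate block, with probe sets averaged per gene and with only probe sets above the median, 4 with the ACTB covariate, 5 with the array set as a block, and 0 to 2 with 1 sample left out (2 without SP replicate 1, 0 without any of the others). Of the 22 other member probe sets, 15 changed sign in at least 1 alternative. The exceptions were the shared CARD16 and CASP1 probe set, 204950_at, 228641_at and 232969_at of CARD8, 210113_s_at of NLRP1, and GSDMD and IL18. With the highest trp control or the first quartile as background, 19 and 17 member probe sets lay above it on all 6 arrays, in place of 20.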
